A study of Mus musculus with 28 samples.

Results

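Levels of 10 genes of the stratified epidermis were followed through reprogramming of mouse fibroblasts: Tgm1, Tgm3, Ivl, Sprr1a, Sprr1b, Crct1, Krt5, Krt14, Krt17 and Krt6a. They are the 10 rows of the deposited table, of 50600 in all, whose gene name is one of these. The table holds 28 libraries of mouse RNA, 2 for each of 14 groups. The starting cells were mouse embryonic fibroblasts (MEFs), whose genotype is labelled WT and which, per the methods, carried an Oct4-GFP reporter (OG2). They were sequenced untreated and after p38i, the p38 kinase inhibitor SB203580. Cells given retroviral Oct4, Klf4 and Sox2 (OKS) were sequenced on days 1, 3, 5 and 7 in the induction medium iCD1. They had DMSO, p38i during induction (p38i), or p38i before induction (pre-p38i). For the untreated MEFs no DMSO is mentioned in the labels. The cells are bulk cultures, and nothing in the labels says that the 2 libraries of a group came from separate cultures or animals. The p-values below therefore measure the spread between these libraries, which may be technical. In bulk RNA, fewer cells of a type and less RNA per cell cannot be told apart.

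Stratified epidermis is built from keratinocytes that divide in a basal layer and then move outwards as they differentiate. Basal cells fill with keratin filaments of Krt5 and Krt14, and wounded or hyperproliferative epidermis adds Krt6a and Krt17. In the outer layers, involucrin (Ivl) and small proline-rich proteins (Sprr1a, Sprr1b) are cross-linked by transglutaminases (Tgm1, Tgm3) into the cornified envelope, the tough shell of the skin surface. Ivl, the Sprr genes and Crct1, which encodes a cysteine-rich protein, lie together in the epidermal differentiation complex on mouse chromosome 3. Klf4, a reprogramming factor given here, is also a regulator of the skin barrier in normal epidermis.

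The deposited values are whole numbers that sum to between 991287 and 992537 per library and are read as TPM, a transcript's share of its library per length, rounded down. Since TPM keeps no read number, depth cannot be stated and counting intervals are left out. A value of 1 to 4 is at the limit of this rounding. The libraries had between 12454 and 14170 genes at 1 or more. Klf4, whose value includes the retroviral copy as far as its reads cannot be told apart, was at 17 to 20 in the 4 MEF libraries. It lay between 569 and 870 in the 24 induction libraries. The genes were chosen by their measured values in these libraries, with earlier results known, and which comparison decided is not recorded. Their levels from MEFs through induction, and the day 1 values under either inhibitor schedule, are therefore a description with no test.

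The MEFs were at 0 for 8 of the 10 genes in all 4 libraries, and only Crct1 (5 to 7) and Sprr1a (1 in each) had a value there. During induction 7 of the 10 averaged 1 or more across the 28 libraries, the limit for testing. They passed it through the induction libraries, where they are high. Krt17 was at 0 in all 28 libraries. Krt5 was above 0 in 4 libraries and never above 1, and Sprr1b was above 0 in 5 and never above 2. Krt5, the filament partner of Krt14, and Krt17, which joins Krt6a in wounded skin, were thus at or near 0. The keratinocyte markers were present only in part. Of 10 keratinocyte markers, Krt15 was at 0 in every library. Krt1 was above 0 only in pre-p38i day 3, and Trp63, the regulator of stratified epithelia, was at 0 in the MEFs and on day 1 of all 3 arms. The summed markers went from between 1 and 4 in MEFs to 168 in each DMSO day 1 library, of which Itgb4, an integrin chain of the hemidesmosome, made 160 and 157. Under p38i the summed keratinocyte markers lay within the DMSO range on day 3 and above it on days 5 and 7, at 415 to 424 against 408 to 442 on day 3, 498 to 545 against 384 to 418 on day 5 and 429 to 430 against 297 to 321 on day 7. Of the 5 markers tested, 3 were called lower on each of these days and 0, 1 and 1 higher. Trp63, Dsg3 and Lamb3 were those called lower, and Itgb4 was the marker called higher. Itgb4 also made most of the sums, so the excess of p38i over DMSO was that of this single gene. Its day 5 values were 529 and 484 under p38i against 349 and 378 in DMSO. For day 7 they were 407 and 409 against 283 and 262. Other cell types' markers moved over the same days. In DMSO the simple epithelium markers summed to 37 to 42 on day 1 and 511 to 544 on day 7, and the fibroblast markers to 5197 to 5480 and 1715 to 1810.

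**Figure D1:**
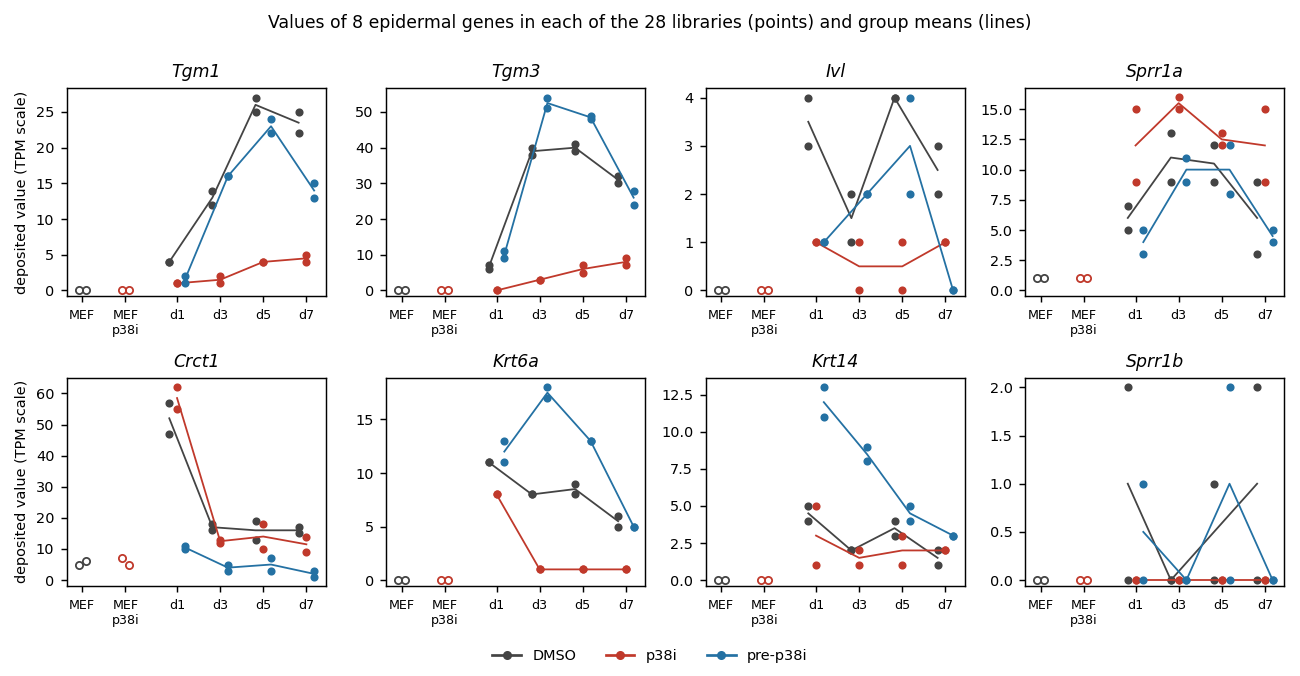
Deposited value (TPM scale, vertical axis) of 8 of the genes in MEFs, p38i MEFs and on days 1, 3, 5 and 7. Points are libraries, 2 a group, lines join group means, and the vertical scale differs between panels. Tgm1, Tgm3 and Krt6a stay low under p38i from day 3 on, Crct1 is high on day 1 in DMSO and p38i, and Sprr1b does not exceed 2.

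Tgm3 (ENSMUSG00000027401, chr2:130012349-130050399, plus strand) encodes an epidermal transglutaminase of late differentiation. In DMSO it was at 7 and 6, 40 and 38, 41 and 39, and 32 and 30 on days 1, 3, 5 and 7. Under p38i the same days had 0 and 0, 3 and 3, 5 and 7, and 7 and 9. The pre-p38i values were 9 and 11, 54 and 51, 48 and 49, and 28 and 24. Every p38i library from day 3 on lay below every DMSO and pre-p38i library of its day. The order of group means ran from pre-p38i day 3 (52.5 ± 2.12, SD, n = 2) and pre-p38i day 5 (48.5 ± 0.707) to DMSO day 5 (40.0 ± 1.41) and DMSO day 3 (39.0 ± 1.41). The ranges of DMSO days 3 and 5 overlapped, and those of the other groups in that sentence did not.

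Tgm1 (ENSMUSG00000022218, chr14:55700009-55713492, minus strand) encodes the membrane-anchored transglutaminase of keratinocytes. In DMSO, days 1, 3, 5 and 7 had 4 and 4, 14 and 12, 27 and 25, and 25 and 22. With p38i the values were 1 and 1, 1 and 2, 4 and 4, and 5 and 4. With pre-p38i they were 2 and 1, 16 and 16, 22 and 24, and 15 and 13. The p38i libraries of days 5 and 7 thus stood where the DMSO libraries stood on day 1. The 3 highest means, DMSO day 5 (26.0), DMSO day 7 (23.5) and pre-p38i day 5 (23.0), had overlapping ranges. An antisense gene, Gm49067, overlaps Tgm1 in GENCODE M21, and whether the quantification used strand is not stated, so reads of the 2 cannot be told apart.

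The transglutaminase genes moved together over the groups, so the sequences before their starts are shown, with those of Ivl and Sprr1a for contrast. They are the 250 bases upstream of the start in RefSeq (GRCm38.p6), 5′ to 3′ on the gene's strand, with motif matches in capitals. RefSeq windows were matched for 7 of the 10 genes, all but Crct1, Krt17 and Krt6a. The motifs searched on both strands were TGANTCA (the AP-1 site), TATAAA (the TATA box), GGGNGTGG (a KLF type site), GCCNNNGGC (TFAP2) and ATGCAAAT (the octamer), and in these windows no match of a motif overlaps one of another. The Tgm1 window, the first of its 2 in RefSeq, is chr14:55713493-55713742 (minus strand), the Tgm3 window chr2:130012090-130012339 (plus strand), the Ivl window chr3:92573736-92573985 (minus strand) and the Sprr1a window chr3:92485882-92486131 (minus strand).
Tgm1: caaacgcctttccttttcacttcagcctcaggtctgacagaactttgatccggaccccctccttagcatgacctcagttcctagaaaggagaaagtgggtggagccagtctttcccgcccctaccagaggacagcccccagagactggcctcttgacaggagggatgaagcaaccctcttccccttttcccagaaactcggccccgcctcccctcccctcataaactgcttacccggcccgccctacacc
Tgm3: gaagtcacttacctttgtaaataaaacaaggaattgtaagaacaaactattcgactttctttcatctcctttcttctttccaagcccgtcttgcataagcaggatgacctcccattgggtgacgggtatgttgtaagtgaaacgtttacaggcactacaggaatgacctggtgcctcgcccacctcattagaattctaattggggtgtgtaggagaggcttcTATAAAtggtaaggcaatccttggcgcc
Ivl: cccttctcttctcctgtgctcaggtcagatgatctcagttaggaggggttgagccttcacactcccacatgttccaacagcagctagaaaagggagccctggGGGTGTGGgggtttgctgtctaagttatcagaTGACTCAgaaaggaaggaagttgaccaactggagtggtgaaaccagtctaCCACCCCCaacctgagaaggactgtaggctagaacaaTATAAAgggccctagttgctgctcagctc
Sprr1a: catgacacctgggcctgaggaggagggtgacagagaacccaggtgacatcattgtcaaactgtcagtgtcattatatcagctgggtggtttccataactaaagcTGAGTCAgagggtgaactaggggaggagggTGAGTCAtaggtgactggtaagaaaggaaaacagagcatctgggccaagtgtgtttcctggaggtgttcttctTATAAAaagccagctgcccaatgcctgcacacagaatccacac
Sprr1a held 2 AP-1 matches and a TATA box, Ivl 1 AP-1 match, a TATA box and 2 KLF type matches, Sprr1b 1 AP-1 match and a TATA box, and Tgm3 a TATA box. The Tgm1, Krt5 and Krt14 windows held none of the 5 motifs, and the Krt14 window does not adjoin the gene start of the deposited table. Of 32851 RefSeq windows of this length, 6.75% held the AP-1 motif, 12.4% TATAAA, 15.9% the KLF type, 13.7% TFAP2 and 1.6% the octamer. A match is a description of letters, and no binding was measured here.

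Among the envelope genes, Crct1 (ENSMUSG00000027913, chr3:93014205-93015687, minus strand) had the highest single values of the 10. It went from 5 and 6 in MEFs to 57 and 47 in DMSO day 1, and then lay at 16 and 18, 19 and 13, and 15 and 17 on days 3, 5 and 7. The p38i values were 62 and 55 on day 1 and 13 and 12, 10 and 18, and 14 and 9 afterwards. With pre-p38i it was at 10 and 11 on day 1, then 3 and 5, 7 and 3, and 3 and 1. The day 1 peak was thus seen in DMSO and p38i, and pre-p38i libraries never exceeded 11. The means of p38i day 1 (58.5 ± 4.95) and DMSO day 1 (52.0 ± 7.07) overlapped in range, and both stood apart from the third, DMSO day 3 (17.0 ± 1.41).

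Sprr1a (ENSMUSG00000050359, chr3:92483952-92485895, minus strand) encodes a small proline-rich envelope protein that is also induced in many stressed cells. It was at 1 in each MEF library. DMSO values on days 1, 3, 5 and 7 were 7 and 5, 13 and 9, 9 and 12, and 9 and 3. The p38i values were 15 and 9, 16 and 15, 13 and 12, and 15 and 9, and those of pre-p38i 5 and 3, 11 and 9, 12 and 8, and 4 and 5. Unlike the transglutaminases, Sprr1a was no lower in p38i than in DMSO on any day by group mean, and its replicates differed by up to 6 in a group. Its neighbour Sprr1b (ENSMUSG00000048455, chr3:92436809-92438789, minus strand) reached 2 in single libraries of DMSO day 1, DMSO day 7 and pre-p38i day 5, whose second library was at 0 each time.

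Ivl (ENSMUSG00000049128, chr3:92570902-92573735, minus strand) encodes involucrin, a scaffold of the envelope. Its values were 3 and 4, 2 and 1, 4 and 4, and 3 and 2 on the 4 days in DMSO. They were 1 and 1, 0 and 1, 1 and 0, and 1 and 1 with p38i, and 1 and 1, 2 and 2, 4 and 2, and 0 and 0 with pre-p38i. No p38i library was above 1. Each neighbouring pair of groups in the order of Ivl means overlapped or tied, as 13 of 13 steps did.

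Of the keratins, Krt6a (ENSMUSG00000058354, chr15:101689932-101694307, minus strand) was highest. In DMSO it was at 11 and 11, 8 and 8, 8 and 9, and 6 and 5 on days 1, 3, 5 and 7. With p38i it was at 8 and 8 on day 1 and at 1 in each of the 6 later libraries. With pre-p38i it was at 11 and 13, 18 and 17, 13 and 13, and 5 and 5. Krt6a was thus present on day 1 in all 3 arms, and from day 3 on no DMSO or pre-p38i library was below 5. Krt6b is 92.6% identical to Krt6a over 2184 aligned bases and reached 8 in pre-p38i day 1. The antisense gene Gm49428 overlaps Krt6a. How reads were split between them is not known, so the Krt6a level is uncertain to that extent.

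Krt14 (ENSMUSG00000045545, chr11:100203162-100207548, minus strand), the basal layer keratin, was at 5 and 4, 2 and 2, 3 and 4, and 1 and 2 in DMSO. It was at 1 and 5, 2 and 1, 1 and 3, and 2 and 2 with p38i. The pre-p38i values were 13 and 11 on day 1 and 8 and 9, 4 and 5, and 3 and 3 afterwards. The pre-p38i means of day 1 (12.0 ± 1.41) and day 3 (8.50 ± 0.707) were the highest of the 14 and stood apart from each other and from the next, DMSO day 1 (4.5 ± 0.707). Krt14 is 91.0% identical to Krt17 over 756 bases, and Krt17 was at 0 in every library.

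p38i MEFs show the levels of these genes under the inhibitor without OKS. Tgm1, Tgm3, Ivl, Krt14 and Krt6a were at 0 in all 4 MEF libraries and Sprr1a at 1 in all 4, so for these genes there was no difference to test. Of all genes tested, 17.9% passed with limma in this comparison. Crct1, the only one of the 7 whose MEF libraries differed, was at 7 and 5 against 5 and 6 (log2 difference 0.10 ± 0.33, SE, adjusted p = 0.957).

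p38i during induction was compared with DMSO on days 3, 5 and 7. The DMSO induction levels, among the values known when the genes were chosen, are 1 arm of these comparisons. The differences and adjusted p below therefore describe these libraries and are not independent support. Tgm3, Tgm1 and Krt6a fell on all 3 days. Differences are of log2(value + 1), which understates the change of low values, and a gene passed at a Benjamini-Hochberg adjusted p under 0.05 over the 13230 genes tested. On day 3, 3 of the 7 genes tested passed, all lower, while 16.2% of all genes tested were called lower and 5.22% higher (21.4% in all). Tgm3 was lower by a log2 difference of -3.32 ± 0.14 (adjusted p = 2.2e-11), a mean of 3.00 against 39.0. Tgm1 differed by -2.51 ± 0.19 (adjusted p = 1.3e-08) and Krt6a by -2.17 ± 0.13 (adjusted p = 8.9e-10). Under p38i that day Krt6a was at 1 and 1 and Tgm1 at 1 and 2, at the limit of the rounding. The SE is pooled over the 14 groups. Groups with equal rounded values in both libraries, such as MEFs at 0, add no spread to it and so narrow it. Crct1 (-0.41, adjusted p = 0.422), Krt14 (-0.29, adjusted p = 0.637, and 0.21 after quantile normalization), Sprr1a (0.48, adjusted p = 0.353) and Ivl (-0.79, adjusted p = 0.112) did not pass.

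On day 5, 4 of the 7 passed, all lower, beside 18.7% of all genes tested called lower and 7.87% higher (26.6% in all). Tgm3 (-2.56 ± 0.14, adjusted p = 1.6e-10), Tgm1 (-2.43 ± 0.19, adjusted p = 1.9e-08) and Krt6a (-2.25 ± 0.13, adjusted p = 5.7e-10) were again lower than in DMSO. Under p38i, Krt6a was at 1 and 1 on days 5 and 7 and Tgm1 at 4 and 4 on day 5, at the limit of the rounding. Ivl fell by 1.82 on the log2 scale (SE 0.35, adjusted p = 5.9e-04), from values of 4 and 4 to 1 and 0. With only the groups compared in the fit the Ivl call was lost (adjusted p = 0.12). On day 7, 4 of the 7 passed, 3 lower and 1 higher, beside 34.1% of all genes tested in either direction. Tgm1 differed by -2.16 ± 0.19 (adjusted p = 6.2e-08), Tgm3 by -1.84 ± 0.14 (adjusted p = 9.9e-09) and Krt6a by -1.70 ± 0.13 (adjusted p = 1.5e-08). Sprr1a was the exception, higher by 1.00 ± 0.34 (adjusted p = 0.0289). That call used a spread pooled over all 14 groups, while its own 4 libraries were far apart (15 and 9 against 9 and 3). The difference was 1.66 without DMSO day 7 replicate 1, 0.34 without DMSO day 7 replicate 2 (adjusted p = 0.507) and 0.66 without p38i day 7 replicate 1 (adjusted p = 0.255). It was also lost with no filter (adjusted p = 0.0513) and with only the groups compared in the fit (adjusted p = 0.357).

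Day 1 values under p38i are described only. Tgm3 was at 0 in each p38i library against 7 and 6, and Tgm1 and Ivl were at 1 in each against 4 and 4 and 3 and 4. Crct1 was as high as in DMSO, and Sprr1a means were 12.0 and 6.00. Macrophage markers moved with this comparison. All 10 are in the table, and they summed to 189 to 251 in the p38i libraries against 249 to 477 in DMSO over the 4 days. Csf1r and Marco were at 0 in p38i day 3. The simple epithelium markers summed to 28 to 32 in p38i day 3 against 78 to 79, and to 220 to 240 on day 7 against 511 to 544. The fibroblast markers summed to 2543 to 2678 against 4389 to 4767 on day 3 and to 2362 to 2455 against 2698 to 3069 on day 5, and the direction turned by day 7, at 2040 to 2064 against 1715 to 1810. Their part in the results was not tested.

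Pre-p38i was compared with the same DMSO libraries, so the p38i and pre-p38i differences share their controls and the same limit from the choice of genes. On day 3, 4 of the 7 genes passed, 3 higher and 1 lower, beside 20.6% of all genes tested. Krt14 rose by a log2 difference of 1.66 ± 0.38 (adjusted p = 0.00369) and Krt6a by 1.04 ± 0.13 (adjusted p = 2.0e-05), so that both keratins were higher after pretreatment. Tgm3 was higher by 0.42 ± 0.14 (adjusted p = 0.0412), a call that was lost when any of its 4 libraries was left out (adjusted p from 0.0999 to 0.192). Crct1 fell by 1.88 (SE 0.33, adjusted p = 5.1e-04). On day 5, 2 of the 7 passed, beside 25.6% of all genes tested. Krt6a was higher by 0.56 ± 0.13 (adjusted p = 0.0042). Crct1 was lower by -1.56 ± 0.33 (adjusted p = 0.0017), and this call was lost without pre-p38i day 5 replicate 2 (-1.06, adjusted p = 0.0533).

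By day 7 the 3 genes that passed, of 7, were all lower, beside 14.5% of all genes tested called lower (29.9% in either direction). Crct1 differed by -2.58 ± 0.33 (adjusted p = 7.4e-06), 3 and 1 against 15 and 17. Ivl was listed at 0 in each pre-p38i library against 3 and 2 (adjusted p = 5.7e-04). Tgm1 fell by 0.71 (SE 0.19, adjusted p = 0.00815), a call that was lost without DMSO day 7 replicate 1 (adjusted p = 0.0732) or pre-p38i day 7 replicate 2 (adjusted p = 0.0749). Krt6a, at 5 and 5 against 6 and 5, did not pass (-0.11, adjusted p = 0.578), nor did Tgm3 (-0.25, adjusted p = 0.2) or Krt14 (0.71, adjusted p = 0.17). With only the groups compared in the fit, Crct1 was lost on days 3, 5 and 7 (adjusted p = 0.0708, 0.16 and 0.0597), Tgm3 on day 3 (0.0616), Krt6a on day 5 (0.0578) and Tgm1 on day 7 (0.0576). A pseudocount of 0.1 lost Tgm3 on day 3 (adjusted p = 0.0981) and Tgm1 on day 7 (0.0595). On day 1, described only, Crct1 means were 10.5 and 52.0, Krt14 12.0 and 4.5, and Tgm1 1.5 and 4.00 for pre-p38i and DMSO. Macrophage markers summed to 41 to 182 in pre-p38i against 249 to 477 in DMSO over the 4 days. The simple epithelium markers summed to 1000 to 1037 against 511 to 544 on day 7. The keratinocyte markers summed to 409 to 426 against 408 to 442 on day 3 and to 326 to 334 against 384 to 418 on day 5. On day 7 they summed to 217 to 228 against 297 to 321. Of the 5 tested, 0, 1 and 3 were called lower and 0, 1 and 0 higher on these days. The fibroblast markers summed to 2938 to 2994 against 4389 to 4767 on day 3, 1727 to 1833 against 2698 to 3069 on day 5 and 1069 to 1103 against 1715 to 1810 on day 7, with 7, 9 and 10 of the 10 called lower. The part of these markers in the results was not tested.

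**Figure D2:**
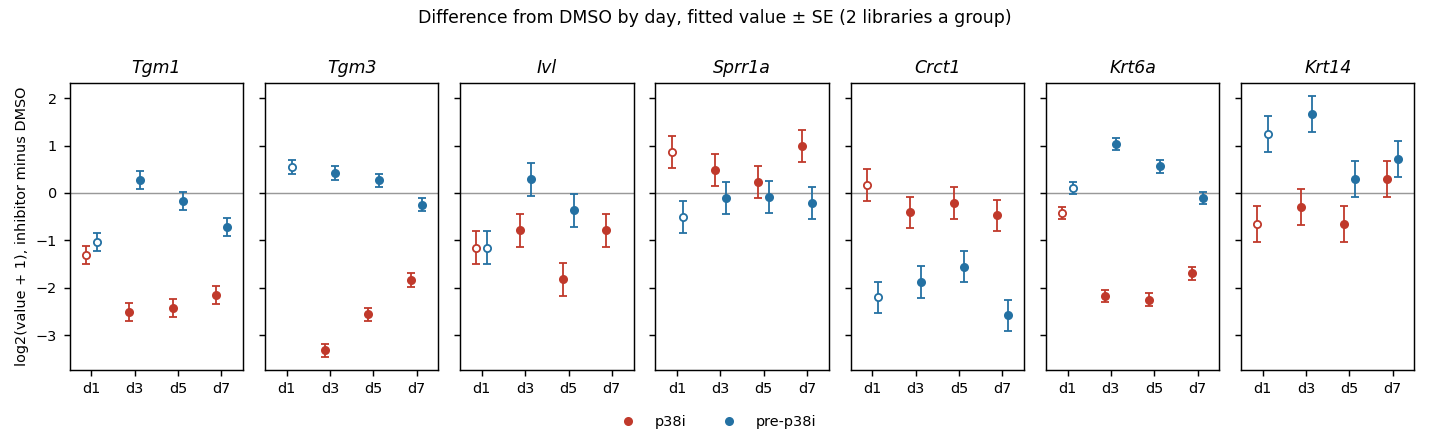
Difference in log2(value + 1) between the inhibitor groups and DMSO by day for the 7 genes tested, fitted value ± SE, 2 libraries a group. Open symbols are day 1, described with no test, and no point is drawn where a group is listed at 0 in both libraries (Tgm3 p38i day 1, Ivl pre-p38i day 7). Tgm1, Tgm3 and Krt6a lie below 0 under p38i on days 3 to 7, and Crct1 lies below 0 under pre-p38i on every day.

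The timing of the inhibitor was compared directly, p38i against pre-p38i. The same limit from the choice of genes holds here, so these differences and adjusted p are not independent support. On day 3, 6 of the 7 genes passed, beside 42.2% of all genes tested (31.4% lower and 10.7% higher). Tgm3 (-3.74 ± 0.14, adjusted p = 2.3e-13), Krt6a (-3.21 ± 0.13, adjusted p = 8.9e-13), Tgm1 (-2.79 ± 0.19, adjusted p = 8.6e-10), Krt14 (-1.95 ± 0.38, adjusted p = 3.4e-04) and Ivl (-1.08 ± 0.35, adjusted p = 0.0163) were lower with p38i during induction. Crct1 was higher (1.46 ± 0.33, adjusted p = 0.00162). On day 5 the same split of 1 higher and 5 lower was seen, beside 47.5% of all genes tested (16.3% higher and 31.1% lower). Crct1 was again the higher gene (1.35 ± 0.33, adjusted p = 0.00252). On day 7, 3 were higher and 3 lower, beside 54.3% (24.8% higher and 29.5% lower). Crct1 (2.11 ± 0.33, adjusted p = 2.5e-05) and Sprr1a (1.21 ± 0.34, adjusted p = 0.00557) were higher, and Ivl was at 1 and 1 against 0 and 0 (adjusted p = 0.0197). Some of these calls were lost when 1 library was left out. For Ivl on day 3 this held for p38i replicate 1 (-0.58, adjusted p = 0.255) and for either pre-p38i replicate, and on day 5 for p38i replicate 2 (-0.95, adjusted p = 0.0528). Ivl on day 7 was lost without any of its 4 libraries (adjusted p from 0.0662 to 0.0688). Krt14 on day 5 (-0.95 ± 0.38, adjusted p = 0.0439) was lost without p38i replicate 1 (-0.45, adjusted p = 0.432) or either pre-p38i replicate. Crct1 on day 5 was lost without p38i replicate 2 (0.96, adjusted p = 0.0599) or pre-p38i replicate 2 (0.85, adjusted p = 0.0746), and Sprr1a on day 7 without p38i replicate 1 (0.87, adjusted p = 0.0889). With only the groups compared in the fit, Ivl on day 3 (adjusted p = 0.173), Crct1 (0.166), Ivl (0.143) and Krt14 (0.208) on day 5, and Crct1 (0.0606) and Sprr1a (0.0726) on day 7 did not pass, while Krt14 on day 7 did (-0.42, adjusted p = 0.00823). A pseudocount of 0.1 (adjusted p = 0.0674) or no filter (0.0642) also lost Krt14 on day 5.

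A shift of the inhibitor effect from day 3 to day 7 was tested as a difference of differences, with the same limit from the choice of genes. Under p38i, Tgm3 shifted upwards, 1 of the 7 genes, beside 19.2% of all genes tested (12.8% upwards and 6.42% downwards). Tgm3 stood at 3 and 3 against 40 and 38 on day 3 and at 7 and 9 against 32 and 30 on day 7. Under pre-p38i, 4 of the 7 shifted downwards, Tgm1, Tgm3, Ivl and Krt6a, beside 8.17% of all genes tested (1.51% upwards and 6.66% downwards). All 4 went from above DMSO on day 3 to below it by group mean on day 7.

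The same pathway was read through 165 other epidermal genes, of which 164 are in the table, 59 were at 0 in every library and 73 were tested. These lists were also chosen with earlier results of these data known. Their counts and adjusted p, here and in the paragraphs below, therefore describe these libraries and are not independent support. Of the 73, 35 were at 0 in all 4 MEF libraries and passed the filter only through the induction libraries. From MEFs to induction these 35 could rise but not fall. From MEFs to DMSO day 1, 41 rose and 9 fell, beside 36.6% of all genes tested called higher and 18.9% called lower. Quantile normalization made these 35 and 14, and moved the median of all genes from 0.14 to -0.07. Itgb4 went from 0 in the MEFs to 160 and 157, and Sprr3, another small proline-rich envelope gene, from 0 to 27 and 24. Cyp4f39, an enzyme of barrier lipid synthesis, went from 0 to 43 and 39. Itgb4, Sprr3 and Cyp4f39 could only rise from the untreated MEFs, so no adjusted p is given for them. Krt13, a keratin of mucosal epithelia, rose by 4.54 ± 0.26 (adjusted p = 1.1e-11). Some listed regulators fell, with Cebpb at 25 and 25 against 122 and 110 (-2.17 ± 0.11, adjusted p = 1.9e-12).

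From day 1 to day 7 in DMSO, 33 of the 73 rose and 21 fell, beside 28.4% and 26.1% of all genes tested. Epidermal transcription factors rose in 10 of 14 and fell in none. Elf3 was at 0 on day 1, from where it could only rise, and at 39 and 34 on day 7. Ehf was at 3 and 3 and then at 31 and 32 (3.02 ± 0.22, adjusted p = 5.6e-10). The envelope list split, 6 of 17 rising and 7 falling. Sprr2b went from 4 and 4 to 31 and 41 (2.87 ± 0.34, adjusted p = 5.0e-07), while Sprr3 fell by 2.14 to 5 and 5 (adjusted p = 6.3e-07). Lce1h was at 16 and 13 on day 1 and at 0 on day 7 (adjusted p = 9.9e-11). The envelope genes of the list therefore did not share a course.

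Under p38i the listed genes were mostly lower. The same limit from the choice of the lists holds here. The 35 of the 73 that were at 0 in the MEFs passed the filter only through induction libraries, the DMSO arm among them. On day 1, 18 of the 73 were called lower and 3 higher. Day 3 had 33 lower and 2 higher, day 5 had 36 and 3, and day 7 had 38 and 6. Of all genes tested, 12.6%, 16.2%, 18.7% and 17.6% were called lower on these days, and 3.47%, 5.22%, 7.87% and 16.5% higher. Median log2 differences of the listed genes were -0.20, -0.58, -0.71 and -0.51, beside -0.08, -0.08, -0.08 and 0.00 over all genes tested. Markers of other cell types were called lower too. On day 3, 9 of 10 fibroblast, 7 of 10 macrophage and 6 of 10 simple epithelium markers were called lower and 0 higher. On day 7 these were 0, 6 and 10 lower and 2, 1 and 0 higher. The background depends on scaling. On day 3, higher genes were 24.4% of all calls as deposited and 50% after quantile normalization, which left the listed genes at 28 lower and 3 higher and moved the median of all genes to 0.04.

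Within the lists on day 7 under p38i, 9 of 14 transcription factors fell and none rose. Elf3 (-1.64 ± 0.22, adjusted p = 9.4e-06) and Hopx (-1.52 ± 0.22, adjusted p = 2.2e-05) were among them. Tgm2, the transglutaminase found in most tissues, fell on all 4 days, with log2 differences of -1.55, -1.92, -1.36 and -0.70. Klk10, a kallikrein protease, was at 47 and 47 against 155 and 135 on day 3 (-1.60 ± 0.10, adjusted p = 8.6e-10). The hemidesmosome integrin gene Itgb4 rose, at 529 and 484 against 349 and 378 on day 5 (0.48 ± 0.05, adjusted p = 2.5e-06) and by 0.58 ± 0.05 on day 7 (adjusted p = 1.5e-07). Il1rn, the interleukin-1 receptor antagonist, rose on each day, with 32 and 27 against 11 and 14 on day 5 (1.18 ± 0.22, adjusted p = 4.7e-04). The fall was therefore not shared by every listed gene.

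**Figure D3:**
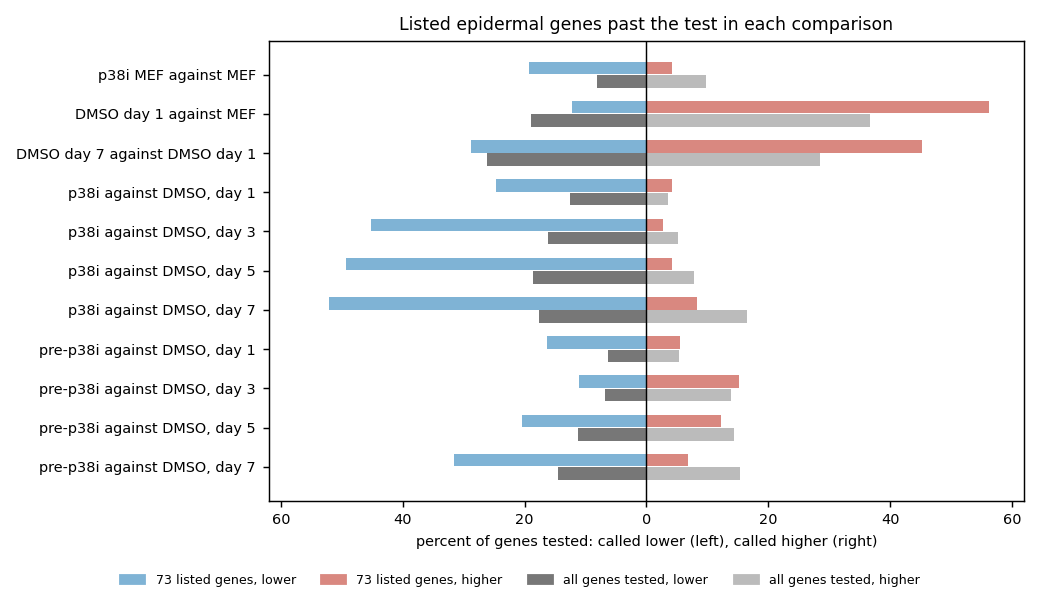
Percent of the 73 listed epidermal genes (coloured) and of all 13230 genes tested (grey) called lower (left) or higher (right) in each comparison (Benjamini-Hochberg adjusted p under 0.05). The listed genes reach 52.1% lower on day 7 under p38i, where all genes reach 17.6%.

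After pretreatment the listed genes were called in both directions. On day 1, 4 were called higher and 12 lower. Day 3 had 11 higher and 8 lower, day 5 had 9 and 15, and day 7 had 5 and 23. Without 1 library the calls in either direction were 10 to 11 in place of 16 on day 1 and 11 to 14 in place of 19 on day 3. Over all genes tested, 5.40%, 13.8%, 14.3% and 15.4% were called higher and 6.24%, 6.87%, 11.3% and 14.5% lower. Elf3 rose on days 3, 5 and 7, reaching 93 and 87 against 39 and 34 (1.28 ± 0.22, adjusted p = 1.7e-04). Krt13 also rose on these days, with 68 and 64 against 24 and 29 on day 5 (1.29 ± 0.26, adjusted p = 0.00107), and the plakophilin gene Pkp1 rose by 0.83 ± 0.10 on day 7 (adjusted p = 5.1e-06). Sprr3 fell on all 4 days, from 10 and 11 against 27 and 24 on day 1 (-1.20 ± 0.25, adjusted p = 0.00401) to 1 and 0 against 5 and 5 on day 7 (-2.08 ± 0.25, adjusted p = 3.7e-06). The growth factor genes Ereg (-1.85 ± 0.14, adjusted p = 6.2e-09) and Hbegf (-1.86 ± 0.15, adjusted p = 1.4e-08) fell on day 7. Krt13 rose and Sprr3 fell on day 3, but the envelope list that day had 2 of 17 genes called higher and 2 lower. Of the 4 listed keratins tested, 2 were called higher and 0 lower.

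**Figure D4:**
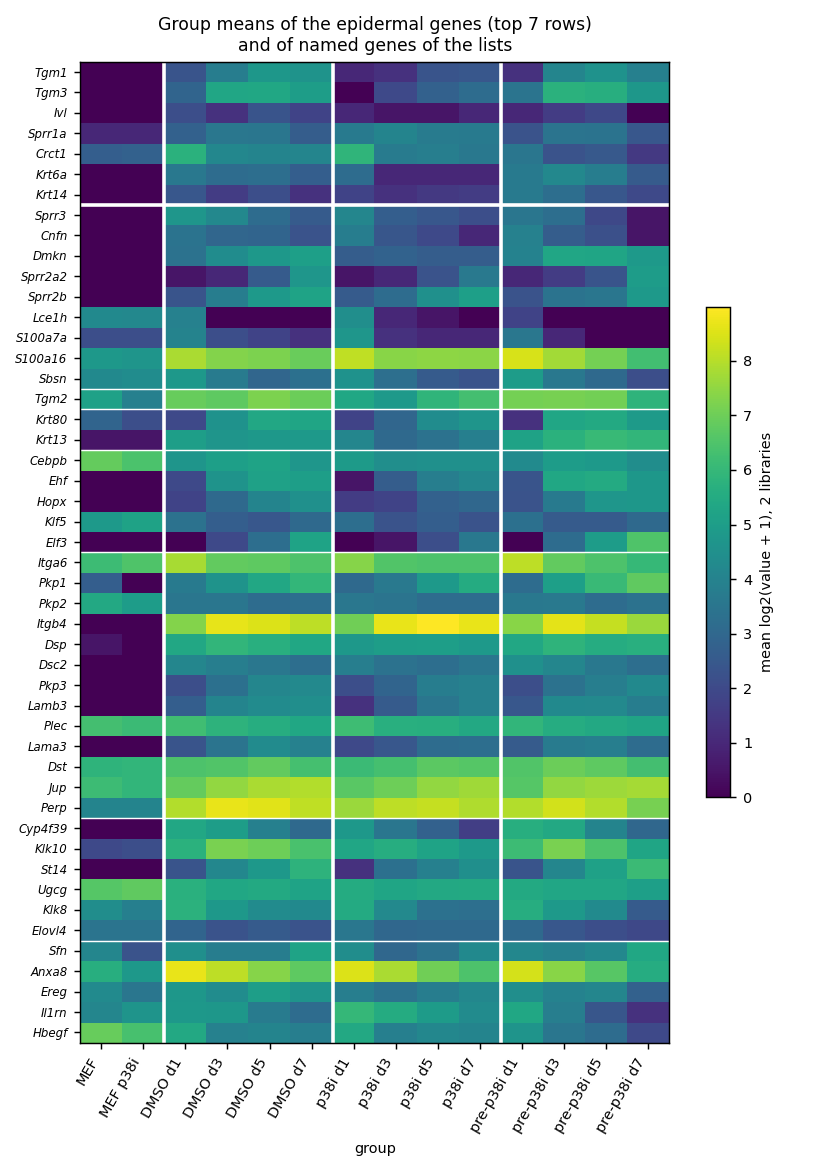
Mean of log2(value + 1) over the 2 libraries of each of the 14 groups (columns) for the 7 genes tested (top 7 rows) and genes of the lists named by the rule, all but 1 (lower rows, thin lines between lists). Tgm1, Tgm3 and Krt6a are at 0 in MEFs and lower in p38i than in DMSO of the same day from day 3 on, and Itgb4 is at 0 in MEFs and high in all induction columns.

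In MEFs without OKS, p38i called 14 of the 73 listed genes lower and 3 higher, beside 8.15% and 9.73% of all genes tested. These 17 calls were 8 to 15 without 1 library. Of the 73, 35 were at 0 in all 4 MEF libraries and could not differ here. Tgm2 went from 37 and 32 to 15 and 13 (-1.24 ± 0.10, adjusted p = 5.9e-08), and Sfn, an epithelial 14-3-3 protein gene, fell by 1.84 (adjusted p = 9.9e-08). Pkp1 was at 6 and 5 and at 0 after p38i (adjusted p = 1.5e-12). Macrophage markers summed to 201 to 204 there, against 293 to 312 in untreated MEFs. Fibroblast markers summed to 6945 to 7006 against 10743 to 10947, with 6 of 10 called lower and none higher. Their part in these calls was not tested.

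**Figure D5:**
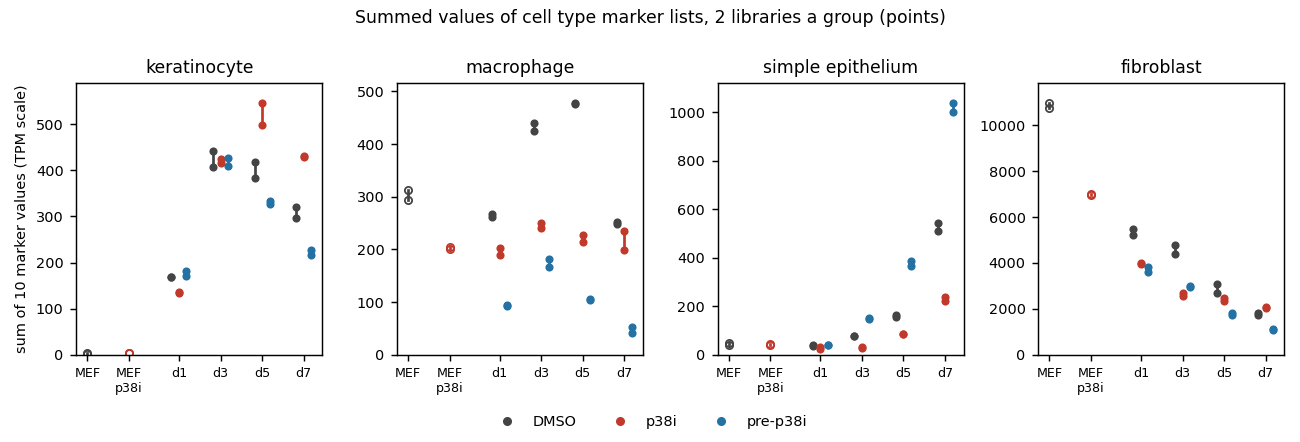
Summed values (TPM scale) of 10 marker genes each for keratinocytes, macrophages, simple epithelium and fibroblasts, with 2 libraries a group as points. Macrophage sums lie highest in DMSO on days 3 and 5 and lowest in pre-p38i, and simple epithelium sums reach 1000 to 1037 in pre-p38i day 7.

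The genes did not follow 1 course. Over the 14 group means, Pearson's r of log2(value + 1) was 0.94 for Tgm1 and Tgm3, 0.86 for Krt14 and Krt6a, and -0.26 for Tgm3 and Crct1. These r are descriptions over 14 means of 28 libraries that share day and treatment. Of 10663 other genes with a mean of at least 5, those most like the mean profile of the 7 genes were Acsl5 (r = 0.975), Apc (0.967), Tnfsf9, Mpp1, Aim1, Rraga, Ubr4, Mmp3, Klk10 (0.956) and Cat (0.955). Klk10 is the only listed epidermal gene among them. Most like Tgm1 were Ddc (0.984), Ifitm6 and Fmo6. Those most like Tgm3 were Gm14569 (0.975), RP23-16N3.16 and Wasf2. For Crct1 they were Degs1 (0.939), Srxn1 and Gss, and for Sprr1a Atp6v1e1 (0.969), Mcoln1 and Gstm4. Krt14 was most like Usp12 (0.953), Pgm1 and Stard3nl, Krt6a like Capza2 (0.952), Lrrc42 and Yes1, and Ivl like Slco2a1 (0.871), Galnt1 and Riox2.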

How the data were processed

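RNA-seq of 28 mouse libraries was analysed in 14 groups of 2, taken from the sample titles. The authors deposited 1 table of whole-number values, a score read here as TPM rounded down because the libraries sum to 991287 to 992537. The unit is inferred. The submitters' processing notes name bcl2fastq, Bowtie2 2.2.5, RSEM 1.3.0 and the builds mm10 and hg38. The labels and the methods give different library kits, extraction reagents and MEF media. Depth is unknown. Of the gene identifiers, 99.6% are in GENCODE M21, and 92.5% of genes have the same position there, 7 of the 10 genes among them.

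Values were compared as log2(value + 1) in limma 3.58.1 under R 4.3.3, by lmFit and a trended eBayes over all 14 groups in 1 model. The filter kept 13230 genes averaging 1 or more. Benjamini-Hochberg adjusted p-values under 0.05 were called. Data were simulated from each gene's mean and spread over all 28 libraries, and 200 genes were changed in p38i day 7. Against DMSO day 7, 199 of the 200 were among the 12964 genes tested. The scripts recovered 80% of changes of 1 and 92.7% of changes of 2 on the log2 scale, with 3.33% false calls. A gene had the same simulated spread in every group, so genes at 0 in only some groups are not covered. The 10 genes and all lists were chosen with earlier results of these data known.

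Named from each list were up to 3 rising and 3 falling genes with the largest change in a comparison among those called and averaging 5 or more; 1 of these is not reported here. Likeness was Pearson's r over the 14 group means. Near-identical transcripts were found with BLAST 2.17.0+, and promoter windows were read from RefSeq (GRCm38.p6). Replicates of a group had equal values for 15.9% to 27.1% of genes tested, so neither library of a group was a copy of the other. Replicate deviations correlated between groups at -0.0838 to 0.0874 over 91 pairs of groups, so no shift shared by equal replicate numbers was seen. This cannot tell whether equal numbers mark a common culture. Alternatives were no filter, a minimum mean of 5, a pseudocount of 0.1, only the groups compared in the fit, a replicate block, quantile normalization and leaving out each library. Il36a, 1 of the 165 listed genes, was not matched by name. Figures were drawn with matplotlib 3.10.9.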

Additional observations from a re-analysis of the deposited data

Results flagged for a closer look

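For 5 pairs of gene and inhibitor schedule, the effect against DMSO shifted from day 3 to day 7 (limma, difference of differences). Chosen as the genes were with results known, these values are descriptions of the 4 groups each rests on.

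Under p38i, Tgm3 changed by 1.48 on the log2(value + 1) scale (SE 0.20, adjusted p = 4.1e-05), from -3.32 on day 3 to -1.84 on day 7. This call was kept without any single library of the 4 groups.

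Under pre-p38i, Krt6a changed by -1.15 (SE 0.19, adjusted p = 5.1e-04), from 18 and 17 against 8 and 8 on day 3 to 5 and 5 against 6 and 5 on day 7. Ivl changed by -2.08 (SE 0.49, adjusted p = 0.0101), a value that depends on the pseudocount because Ivl is listed at 0 in each pre-p38i day 7 library. It was lost without DMSO day 7 replicate 1 (adjusted p = 0.0517) or DMSO day 3 replicate 2 (adjusted p = 0.0571). Tgm1 changed by -0.99 (SE 0.27, adjusted p = 0.0264), and this was lost without DMSO day 7 replicate 1, DMSO day 3 replicate 2, pre-p38i day 7 replicate 2 or either pre-p38i day 3 replicate (adjusted p from 0.0685 to 0.105). Tgm3 changed by -0.67 (SE 0.20, adjusted p = 0.0451), which was lost without any of 7 libraries, all but pre-p38i day 7 replicate 1 (adjusted p from 0.0827 to 0.178). Macrophage sums in pre-p38i were 167 to 182 on day 3 and 41 to 52 on day 7, against 425 to 439 and 249 to 252 in DMSO, and their part was not tested.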

How the results depend on the processing

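The falls of Tgm1, Tgm3 and Krt6a under p38i on days 3, 5 and 7 passed in all 10 alternatives each. The highest adjusted p among these was 0.0499, for Tgm1 on day 3, just under the threshold. A fit of only the groups compared has fewer residual degrees of freedom and called fewer listed genes: 5 of 17 in p38i MEFs, 8 of 21, 17 of 35, 21 of 39 and 23 of 44 under p38i on days 1, 3, 5 and 7, and 4 of 16, 12 of 19 and 13 of 24 under pre-p38i on days 1, 3 and 5. It called 2, 0 and 1 of the 10 genes under pre-p38i on days 3, 5 and 7, in place of 4, 2 and 3 (on day 5, 2 at an unadjusted p under 0.05), and 3 in place of 6 for p38i against pre-p38i on day 5. A minimum mean of 5 left 32 of 54 listed calls from day 1 to day 7 in DMSO, with 42 genes tested. A pseudocount of 0.1 gave 11 listed calls under pre-p38i on day 3 in place of 19, and 2 of the 10 genes in place of 4 for the pre-p38i change from day 3 to day 7, and no filter gave 2 in place of 1 for the p38i change, where the cause was not tested. Quantile normalization turned Krt14 under p38i on day 3 from -0.29 to 0.21 and lost Tgm3 under pre-p38i on day 3 (adjusted p = 0.0971) and, for p38i against pre-p38i, Ivl on days 3 and 7 (0.175 and 0.109) and Krt14 on day 5 (0.0873).

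Leaving out 1 library gave 8 to 15 listed calls in p38i MEFs (8 without MEF replicate 1, 9 and 11 without p38i MEF replicates 1 and 2). It gave 10 to 11 under pre-p38i on day 1 (10 without DMSO replicate 1 or pre-p38i replicate 2) and 11 to 14 on day 3 (11 without pre-p38i replicate 2, 12 without either DMSO replicate). There were 1 to 2 of the 10 genes under pre-p38i on day 5 and 1 to 4 for the pre-p38i change. Differences that did not pass changed sign for Crct1 in p38i MEFs (-0.11 to 0.30), under p38i on day 5 (-0.61 to 0.18) and for its p38i change (-0.35 to 0.24). They did so for Sprr1a under pre-p38i on days 3 (-0.35 to 0.13), 5 (-0.34 to 0.19) and 7 (-0.87 to 0.45), for its p38i change (-0.14 to 1.18) and for its pre-p38i change (-0.76 to 0.56).

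No shift shared by libraries of equal replicate number was seen. A replicate block lost the Tgm3 change under pre-p38i (adjusted p = 0.0526), which left 3 of 4, and no other call of the 10 genes. It moved listed calls by at most 1. No depth limit can be given, since the values keep no read number. Values of 0 to 4 differ by steps of the rounding. Among them are Ivl, Krt14, Sprr1b and Krt5. Under p38i they include Krt6a on days 3, 5 and 7, Tgm1 on days 3 and 5, and Tgm3 on day 3.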
